A study of Mus musculus with 12 samples.

Results

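The subunits of nuclear factor kappa B (NF-kB) and a group of its feedback inhibitors and cofactors were examined in muscle satellite cells with and without the chemokine receptor CXCR4. The genes were taken from the deposited count table by name, and 10 of its 55401 genes were used. They comprise the subunits *Rela*, *Rel*, *Nfkb1*, *Relb* and *Nfkb2*, the cytoplasmic inhibitors *Nfkbia* and *Nfkbib*, the ubiquitin editing enzyme *Tnfaip3*, and the nuclear cofactors *Nfkbiz* and *Bcl3*. Each name matched 1 row, and all 10 passed a filter on low counts that kept 25771 genes.

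RNA was sequenced from satellite cells, the stem cells of skeletal muscle, sorted from the hind limbs of mice by the fluorescence of a Pax7-ZsGreen reporter. All mice were CXCR4 FL/FL and Pax7-ZsGreen and were given tamoxifen at 80 mg/kg on 5 days. The *Cxcr4* KO mice also carried Pax7-creERT2, so that *Cxcr4* was deleted only in cells that had expressed *Pax7*, while the *Cxcr4* WT mice lacked cre. Freshly sorted cells, called quiescent, gave 4 WT and 4 KO libraries. Cells cultured overnight after sorting, called activated, gave 2 WT and 2 KO libraries. Before sorting, muscle was digested with enzymes. The study found MYOD protein in almost all freshly isolated cells of both genotypes, which it counts as a very early step of activation. The quiescent libraries therefore describe dissociated and sorted cells, and cells in intact muscle were not measured. Per the study's methods, the mice were adults aged 3 to 4 months. Whether each library came from a separate mouse is not given in the sources used here, so p-values measure the spread between these libraries, which may be partly technical.

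NF-kB is a family of dimeric transcription factors that drive inflammatory, survival and immune genes. In the canonical arm, RelA or c-Rel pairs with the processed product of *Nfkb1* and is held in the cytoplasm by inhibitors of the IκB family until a kinase complex marks the inhibitor for destruction. In the noncanonical arm, the product of *Nfkb2* is processed and pairs with RelB. Several of the genes that NF-kB switches on encode its own brakes, among them *Nfkbia*, which encodes IκBα, and *Tnfaip3*, which edits ubiquitin chains on upstream signaling proteins. *Bcl3* and *Nfkbiz* encode nuclear IκB proteins that act on DNA-bound dimers. In muscle, NF-kB activity is known to hold back differentiation of myoblasts.

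The promoters of these genes are shown first because feedback on this pathway acts through the kappa B motif, the DNA element that NF-kB dimers bind. Windows of 300 bases, from 250 before to 50 after an annotated start, were taken from RefSeq on GRCm38.p6, and 7 of the 10 genes had at least 1 window. *Nfkb1*, *Relb* and *Nfkbiz* had none in the table. The motif was GGGRNNYYCC, 10 bases in which R is A or G, Y is C or T and N is any base. It was searched on both strands, with overlapping matches counted as 1 site. Kappa B elements that depart from this pattern were not counted or marked. A site lay in a window of 5 genes, *Nfkbia*, *Tnfaip3*, *Rel*, *Nfkb2* and *Bcl3*, and in none of *Rela* and *Nfkbib*. Among all 27025 genes in the table, 9.55% had a site in a window. A match describes letters only and is not evidence of binding. The 250 bases before the start of *Nfkbia* (chr12:55492648-55492897, minus strand) held 1 site, shown in capitals, which begins 29 bases before the start.
Nfkbia: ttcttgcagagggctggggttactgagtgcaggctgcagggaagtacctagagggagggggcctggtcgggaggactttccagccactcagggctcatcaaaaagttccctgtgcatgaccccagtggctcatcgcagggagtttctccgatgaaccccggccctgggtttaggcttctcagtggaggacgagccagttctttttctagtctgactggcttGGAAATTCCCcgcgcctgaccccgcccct
The sites of the other genes are shown for comparison with 9 bases on each side, the motif again in capitals. The sites of *Tnfaip3* (chr10:19015517-19015544 and chr10:19015404-19015431, minus strand) begin 125 and 12 bases before the start, and both motifs lie within 1 longer GENCODE transcript but in none of its exons. That of *Rel* (chr11:23771042-23771070, minus strand) begins 92 bases before it. Those in the first of the 3 windows of *Nfkb2* (chr19:46304689-46304717 and chr19:46304717-46304744, plus strand) begin 39 and 11 bases before the annotated start and lie in an exon of a longer GENCODE transcript. That of *Bcl3* (chr7:19822735-19822762, minus strand) begins 2 bases after the start, in the first exon.
Tnfaip3, farther site: actcacgcgGGGACACCCCggggcggga
Tnfaip3, nearer site: atttccatcGGAAATCCCCctgttggca
Rel: gtaagcagcGGGAAATCCCCccccctccc
Nfkb2, farther site: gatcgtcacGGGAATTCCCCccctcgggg
Nfkb2, nearer site: gggccgaaaGGGGCTTTCCcggctggag
Bcl3: cggcggcagGGGAAGTCCCgctgcccgg
Windows for other starts of *Nfkb2* also held sites, which are not printed, and the window of the other *Tnfaip3* start held none.

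The libraries differed between states in more than culture. Quiescent libraries held 12775593 to 23717013 counts and activated libraries 3172164 to 5427280. The ribosomal RNA gene *CT010467.1* took between 11.5% and 40.3% of the counts in activated libraries and at most 0.807% in quiescent libraries, with 95% Wilson intervals no wider than 0.054 percentage points on either side, which cover counting error only. *Cxcr4* ranged from 59.1 to 112 CPM in quiescent WT and from 12.5 to 21.2 CPM in quiescent KO libraries, where CPM are counts scaled to a common library size by edgeR's TMM method. In activated libraries it had 33.3 and 14.4 CPM in WT and 5.39 and 13.7 CPM in KO. The log2 difference of KO from WT was -2.24 (standard error 0.31, adjusted p = 0.00477, edgeR) in quiescent cells. It was -1.35 (standard error 0.46, adjusted p = 0.381, edgeR) in activated cells, where KO replicate 2 lay close to WT replicate 2. *Xist* had 1.20 to 7.17 CPM in quiescent and 451 to 817 CPM in activated libraries, and 4 genes of the Y chromosome together had 358 to 660 CPM in quiescent and 0 to 2.51 CPM in activated libraries, a split by sex of the mice that follows the states. Satellite cell markers (9 genes) summed to 3758 to 5761 CPM in quiescent and 1068 to 1654 CPM in activated libraries, and no more than 1 was at 0 in any library. State, sex, depth and ribosomal RNA share therefore cannot be told apart. WT activated replicate 1 stood apart from the other activated libraries, with 12 immediate early genes summing to 3746 CPM against 1570 to 1657 CPM and 8 endothelial markers to 766 CPM against 128 to 409 CPM. WT activated replicate 2 had the fewest counts of all libraries, 3172164, and the highest share of *CT010467.1*, 40.3%. It also had the fewest genes with at least 10 counts, 10344.

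In quiescent WT cells the transcripts of the pathway were not at equal levels. *Nfkb1* had the highest mean CPM, at 1036, against 612 for *Rela* and 568 for *Nfkbia*. Levels per kilobase divide by merged exons, which for *Nfkb1*, with 10 annotated transcripts, span 12061 bases, the longest of the 10 genes. Their order depends on this length, and the length of the transcripts present was not measured. Per kilobase of exon, *Nfkbia* was the most abundant of the 10, at 353 ± 84.6 CPM per kilobase (SD, n = 4), followed by *Rela* at 199 ± 20.9. *Nfkb2* had 130 ± 12.4, *Nfkbiz* 107 ± 9.32, *Nfkb1* 85.9 ± 19.9 and *Bcl3* 81.9 ± 4.26 CPM per kilobase. The lowest were *Nfkbib* at 44.4 ± 8.83, *Tnfaip3* at 28.6 ± 8.61, *Relb* at 25.4 ± 1.76 and *Rel* at 12.3 ± 1.00 CPM per kilobase (SD, n = 4 each). *Nfkbia* did not overlap with *Rela*, nor *Rela* with *Nfkb2*, over the 4 libraries, and *Rel* lay below all others. Neighbours from *Nfkb2* to *Bcl3* overlapped in their ranges, as did *Nfkbib* with *Tnfaip3* and *Tnfaip3* with *Relb*. In quiescent KO cells the order was the same except that *Bcl3*, at 101 ± 13.1, lay between *Nfkbiz*, at 101 ± 11.2, and *Nfkb1*, at 97.3 ± 42.4 (SD, n = 4 each). In activated WT cells the order per kilobase was *Nfkbia* at 132 ± 39.1, *Nfkb2* at 59.4 ± 17.7, *Rela* at 48.2 ± 11.9, *Nfkbib* at 24.3 ± 9.83 and *Relb* at 18.3 ± 6.96 (SD, n = 2 each). *Bcl3*, *Nfkbiz*, *Nfkb1* and *Tnfaip3* followed between 8.15 and 11.4, and *Rel* was again last at 3.66 CPM per kilobase. Activated KO cells kept *Nfkbia* at 123 ± 35.2, *Nfkb2* at 62.6 ± 10.5 and *Rela* at 48.0 ± 0.237 as the highest 3 and *Rel* at 1.54 ± 0.329 as the lowest (SD, n = 2 each). *Nfkb1*, at 6.39 ± 2.38, and *Nfkbiz*, at 5.82 ± 1.28, lay below *Nfkbib*, at 23.2 ± 5.09, and *Relb*, at 18.6 ± 0.197, in these libraries (SD, n = 2 each), whereas both lay above them in quiescent KO cells.

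**Figure D1:**
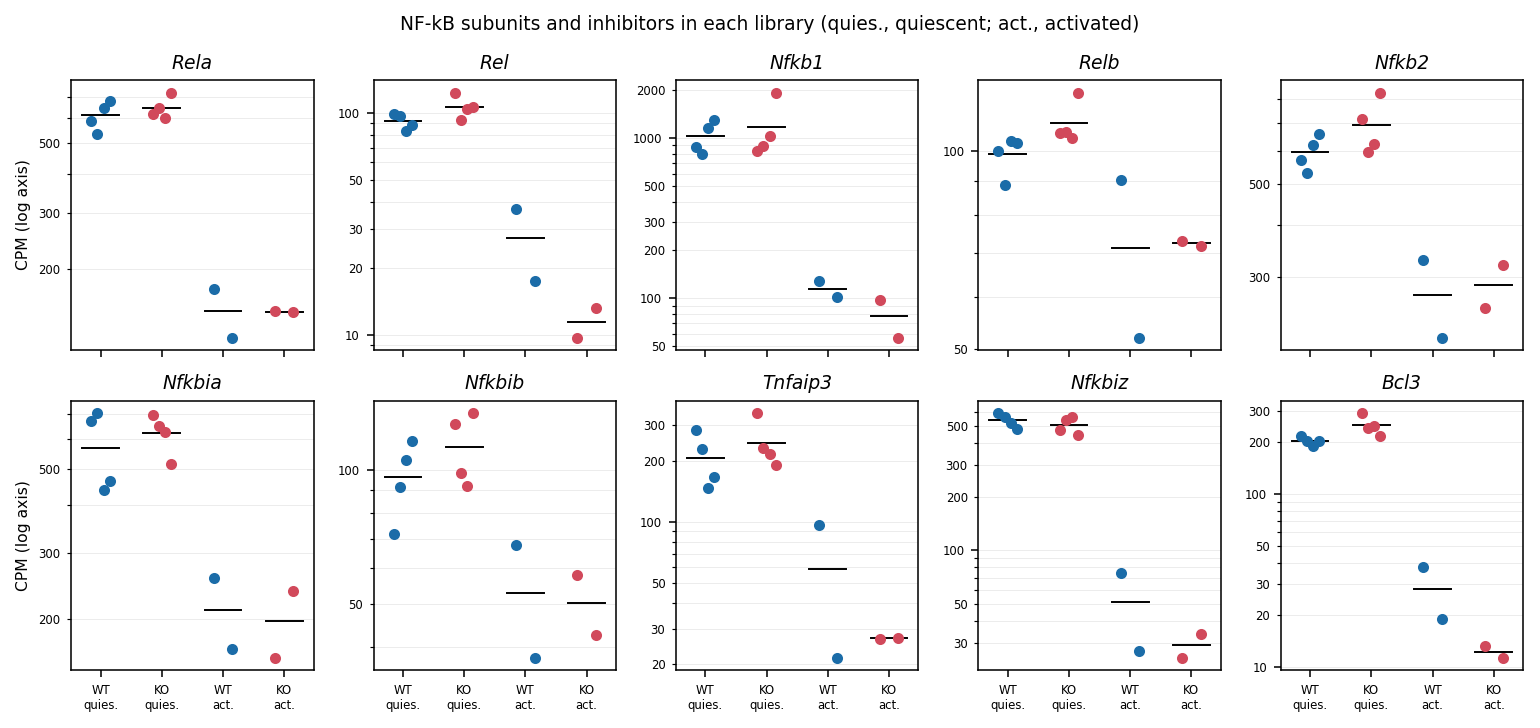
CPM of each gene on a log axis in each of the 12 libraries, WT in blue and KO in red, with a line at the group mean. For *Nfkb1*, *Nfkbiz* and *Bcl3* every activated library lies below every quiescent library with a wide gap, whereas for *Relb* WT activated replicate 1, at 90.3 CPM, lies within the range of the quiescent WT libraries.

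The first question was how the pathway changed between freshly sorted and cultured cells. No member rose with culture. In WT, 8 of the 10 genes were called lower, against 16.5% of all genes tested called lower and 9.65% called higher. In KO, 9 of the 10 were called lower, against 18.5% called lower and 11.1% called higher among all genes. A gene was called when edgeR's quasi-likelihood test across all genes gave an adjusted p under 0.05, its log2 fold change exceeded 1 in size and the compared libraries averaged over 10 counts. Fold changes are given with their standard errors (SE). The median log2 fold change of the 10 genes was -1.75 in WT and -2.66 in KO, beside -0.92 and -0.96 over all genes tested and -0.14 and -0.11 over the 7361 genes with an average log2 CPM over 4. By fold change alone, 27.5% (*Nfkbiz*) to 58.0% (*Relb*) of all genes tested lay lower than a member in WT. In KO the range was 23.4% (*Bcl3*) to 55.7% (*Relb*). All genes tested include many with low counts, and the share called among genes with similar levels is not given. In bulk RNA, fewer cells of a type and less RNA per cell cannot be told apart.

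Positions are those of GENCODE M21 on GRCm38. *Rela* (ENSMUSG00000024927, chromosome 19, 5637483 to 5648130) encodes the main activating subunit of the canonical arm. It had 587, 535, 646 and 680 CPM in quiescent WT and 618, 646, 601 and 721 CPM in quiescent KO libraries, and 174 and 122 CPM in activated WT and 148 and 147 CPM in activated KO libraries. All activated libraries lay below all quiescent libraries in both genotypes. Its log2 change with culture was -2.04 (SE 0.26, adjusted p = 8.38e-06, edgeR) in WT and -2.13 (SE 0.27, adjusted p = 4.83e-06, edgeR) in KO, and the test of the difference between genotypes gave -0.09 (SE 0.34, adjusted p = 1, edgeR).

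*Nfkb1* (ENSMUSG00000028163, chromosome 3, 135584655 to 135691547) encodes the precursor that is processed into the usual partner of RelA, and its unprocessed form also acts as an IκB. It had 884, 792, 1159 and 1308 CPM in quiescent WT and 832, 896, 1036 and 1929 CPM in quiescent KO libraries. Activated libraries had 127 and 101 CPM in WT and 97.3 and 56.8 CPM in KO. Its change with culture on the log2 scale was -3.18 (SE 0.40) in WT and -3.93 (SE 0.42) in KO, with adjusted p-values of 6.56e-06 and 8.93e-07 in edgeR's test. Of the subunits, *Nfkb1* had the most negative fold change in both genotypes.

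*Rel* (ENSMUSG00000020275, chromosome 11, 23736847 to 23770970) encodes c-Rel, a subunit best known from lymphoid cells. It had 99.2, 96.9, 83.0 and 88.6 CPM in quiescent WT and 124, 93.0, 104 and 106 CPM in quiescent KO libraries. After culture it had 37.1 and 17.5 CPM in WT and 9.76 and 13.2 CPM in KO, with both KO values below both WT values. Its change on the log2 scale was -1.72 (SE 0.30, adjusted p = 0.000181, edgeR) in WT and -3.21 (SE 0.33, adjusted p = 5.36e-07, edgeR) in KO.

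The noncanonical subunits had smaller fold changes. *Nfkb2* (ENSMUSG00000025225, chromosome 19, 46304320 to 46312385) had 573, 531, 620 and 662 CPM in quiescent WT and 717, 597, 625 and 829 CPM in quiescent KO libraries, against 330 and 215 CPM in activated WT and 253 and 321 CPM in activated KO libraries. Relative to quiescent cells its log2 change was -1.13 (SE 0.27, adjusted p = 0.00328, edgeR) in WT and -1.27 (SE 0.27, adjusted p = 0.00117, edgeR) in KO. *Nfkb2* shares 299 exon bases, 6.52% of its exons, with *Psd* and 531 with *AC114539.1* on the opposite strand, and the sources used here do not say whether counting used strand. *Psd*, which had 25552 counts in quiescent WT libraries together, was itself lower in culture (log2 fold change -1.57 in WT and -2.02 in KO).

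*Relb* (ENSMUSG00000002983, chromosome 7, 19606217 to 19629438) is the partner of processed *Nfkb2* and was the only member called in neither genotype. It had 100, 88.8, 104 and 103 CPM in quiescent WT and 107, 107, 105 and 123 CPM in quiescent KO libraries. Activated libraries had 90.3 and 52.1 CPM in WT and 72.9 and 71.9 CPM in KO, so that 1 WT activated library lay within the quiescent range and the other below it. Its log2 change with culture was -0.46 (SE 0.25, adjusted p = 0.16, edgeR) in WT and -0.61 (SE 0.25, adjusted p = 0.0671, edgeR) in KO.

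**Figure D2:**
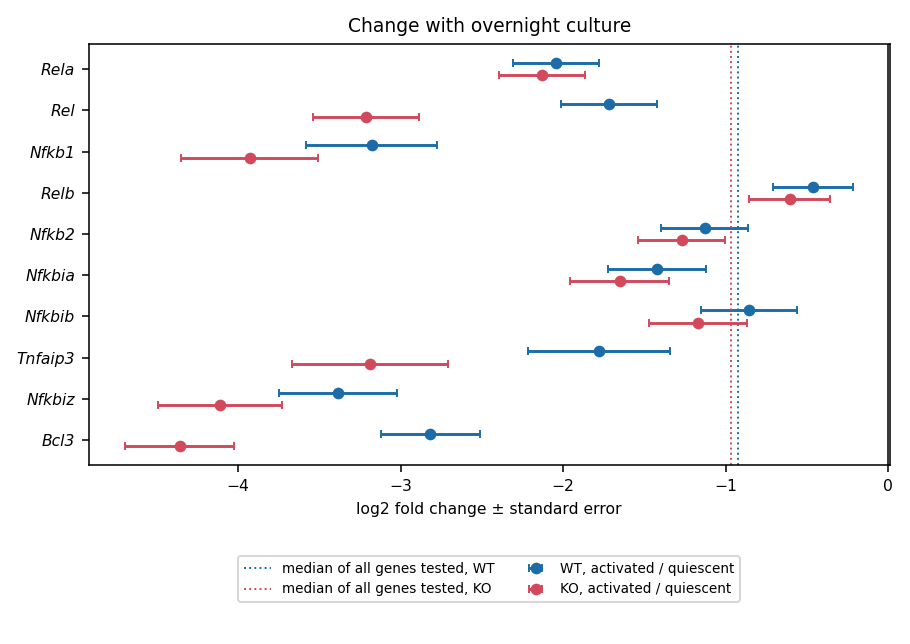
Log2 fold change of activated against quiescent libraries for each gene, WT in blue and KO in red, with standard errors; dotted lines mark the median of all genes tested. *Nfkbiz*, *Nfkb1* and *Bcl3* lie farthest to the left, *Relb* lies closest to 0, and the largest gaps between genotypes are those of *Rel*, *Tnfaip3* and *Bcl3*.

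Since *Relb* was called in neither genotype while *Rela* fell, the make-up of the subunit pool was set out within each library, a measure that does not depend on scaling between libraries. These ratios were chosen after the values were seen and are given with no test. Ratios and shares depend on the exon lengths used, while the change of a ratio between states does not. Per kilobase, the ratio of *Relb* to *Rela* was 0.132 ± 0.00596 (SD, n = 8) in quiescent libraries, from 0.120 to 0.138, and 0.381 ± 0.0311 (SD, n = 4) in activated libraries, from 0.337 to 0.411. The log2 difference was 1.54 in WT and 1.53 in KO. The ratio of *Nfkb2* to *Nfkb1* was 1.62 ± 0.345 (SD, n = 8) in quiescent libraries, from 1.13 to 2.27, and 8.53 ± 4.27 (SD, n = 4) in activated libraries, from 5.59 to 14.9. For both ratios every activated library lay above every quiescent library. *Nfkb1* made up 14.7% to 25.7% of the summed subunit level per kilobase in quiescent libraries and 3.30% to 7.57% in activated libraries. *Nfkb2* made up 28.2% to 33.2% and then 41.9% to 49.0%, and *Relb* 5.08% to 6.04% and then 12.1% to 14.3%. The ratio of *Rel* to *Rela* overlapped between states, at 0.0528 to 0.0825 in quiescent libraries, 0.0877 and 0.0590 in activated WT libraries and 0.0271 and 0.0371 in activated KO libraries.

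**Figure D3:**
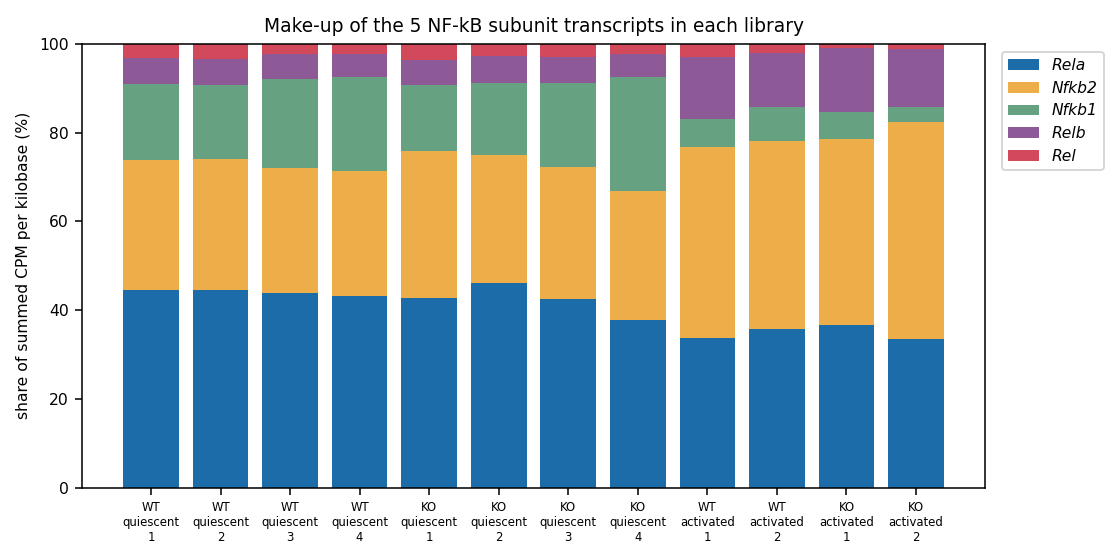
Share of each subunit in the summed CPM per kilobase of the 5 subunits, in percent, for each library. The *Nfkb1* band narrows from at least 14.7% in quiescent libraries to at most 7.57% in activated libraries, while the *Relb* and *Nfkb2* bands widen.

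The inhibitors had lower levels in culture, to different extents. *Nfkbia* (ENSMUSG00000021025, chromosome 12, 55489410 to 55492647) had 668, 702, 439 and 463 CPM in quiescent WT and 695, 651, 625 and 513 CPM in quiescent KO libraries, and 256 and 167 CPM in activated WT and 158 and 238 CPM in activated KO libraries. No activated library reached the quiescent range. The log2 change amounted to -1.42 (SE 0.30, adjusted p = 0.00128, edgeR) in WT and -1.65 (SE 0.31, adjusted p = 0.00033, edgeR) in KO. It remained the most abundant of the 10 transcripts per kilobase in the means of both activated groups.

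*Nfkbib* (ENSMUSG00000030595, chromosome 7, 28758251 to 28767512) encodes IκBβ, whose level is less dependent on NF-kB itself. It had 71.8, 91.7, 106 and 116 CPM in quiescent WT and 127, 98.7, 92.3 and 134 CPM in quiescent KO libraries, and 67.8 and 37.7 CPM in activated WT and 58.0 and 42.4 CPM in activated KO libraries. In WT, its highest activated value lay just under its lowest quiescent value. Its change with culture on the log2 scale was -0.86 (SE 0.30, adjusted p = 0.035, edgeR) in WT, short of the fold threshold, and -1.17 (SE 0.30, adjusted p = 0.0053, edgeR) in KO. Its exons share 42 bases with *Sirt2* and 314 bases with *Ccer2* on the opposite strand.

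*Tnfaip3* (ENSMUSG00000019850, chromosome 10, 19000910 to 19015657) had 284, 229, 147 and 167 CPM in quiescent WT and 342, 230, 215 and 190 CPM in quiescent KO libraries. In culture it had 96.4 and 21.5 CPM in WT and 26.7 and 26.9 CPM in KO. The value of 96.4 CPM came from WT activated replicate 1, the activated library with the highest endothelial and immediate early sums, and the other 3 lay close together. Its log2 change with culture was -1.78 (SE 0.44, adjusted p = 0.00415, edgeR) in WT and -3.19 (SE 0.48, adjusted p = 3.79e-05, edgeR) in KO.

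The nuclear cofactors showed some of the most negative fold changes of the group. *Nfkbiz* (ENSMUSG00000035356, chromosome 16, 55811375 to 55838899), which encodes a cofactor needed for secondary NF-kB targets such as *Il6*, had 590, 560, 521 and 482 CPM in quiescent WT and 476, 540, 564 and 442 CPM in quiescent KO libraries. Activated libraries had 74.3 and 27.1 CPM in WT and 24.7 and 33.8 CPM in KO, a log2 fold change of -3.38 (SE 0.36, adjusted p = 1.03e-06, edgeR) in WT and -4.11 (SE 0.38, adjusted p = 1.71e-07, edgeR) in KO. *Bcl3* (ENSMUSG00000053175, chromosome 7, 19808462 to 19822770), whose exons share 161 bases with *Gm16175* on the opposite strand, had 216, 202, 190 and 203 CPM in quiescent WT and 293, 241, 247 and 215 CPM in quiescent KO libraries. It had 37.6 and 18.8 CPM in activated WT and 13.1 and 11.2 CPM in activated KO libraries. Its change on the log2 scale was -2.82 (SE 0.30, adjusted p = 1.07e-06, edgeR) in WT and -4.36 (SE 0.34, adjusted p = 2.65e-08, edgeR) in KO, the latter being the most negative of all 10 genes in KO.

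Several calls depended on 1 library. A fit without 1 activated library leaves 1 in its group, whose spread is then taken from the other groups. Without WT activated replicate 2, 5 of the 10 genes were called lower in WT, because *Nfkb2* (-0.80, adjusted p = 0.143, edgeR), *Nfkbia* (-1.09, adjusted p = 0.0603, edgeR) and *Tnfaip3* (-1.04, adjusted p = 0.0892, edgeR) no longer passed. Without WT activated replicate 1, 9 genes were called, *Nfkbib* among them. In KO, *Nfkbib* was no longer called without KO activated replicate 2 (-0.94, adjusted p = 0.111, edgeR). *Rela*, *Rel*, *Nfkb1*, *Nfkbiz* and *Bcl3* were called lower in both genotypes in each fit that left out 1 library.

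The other genes of the pathway moved in both directions. Of 22 receptors and adaptors tested, 3 were called higher and 9 lower in WT, and 1 higher and 10 lower in KO. Of 10 kinases and kinase adaptors, 2 were called higher and 2 lower in each genotype. Of 16 other inhibitors and ubiquitin enzymes, 1 was called higher and 4 lower in WT, and 2 higher and 7 lower in KO. Among all genes tested, 9.65% were called higher and 16.5% lower in WT, and 11.1% higher and 18.5% lower in KO. The median log2 fold change of the 48 pathway genes tested was -0.53 in WT and -0.77 in KO. *Ikbkg*, which encodes the regulatory subunit of the kinase complex that acts on IκB proteins, rose from 16.6 to 57.8 mean CPM in WT (log2 fold change 1.81, SE 0.27, adjusted p = 3.53e-05, edgeR) and from 15.1 to 55.7 mean CPM in KO (1.88, SE 0.27, adjusted p = 2.02e-05, edgeR). *Tab1*, which activates a kinase upstream of that complex, rose from 8.72 to 31.9 mean CPM in KO (1.87, SE 0.30, adjusted p = 8.99e-05, edgeR).

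Known targets of NF-kB outside the 10 genes were read from a list of 33, of which 32 were tested. This list and that of the pathway genes were chosen with earlier results of these data known. In WT, 4 were called higher and 13 lower, and in KO 3 were called higher and 19 lower, with a median log2 fold change of -0.78 and -2.55. The shares over all genes were 9.65% higher and 16.5% lower in WT, and 11.1% higher and 18.5% lower in KO. *Il6*, an inflammatory cytokine, went from 95.0 to 1.27 mean CPM in KO (log2 fold change -6.17, SE 0.88, adjusted p = 2.23e-05, edgeR), and its counts in the activated KO libraries were 1 and 10. *Cxcl1*, a chemokine for neutrophils, went from 1481 to 52.6 mean CPM in KO (-4.81, SE 0.54, adjusted p = 1.38e-06, edgeR). *Vcam1*, an adhesion molecule that is also a satellite cell marker, went from 456 to 20.4 mean CPM in KO (-4.49, SE 0.47, adjusted p = 6.62e-07, edgeR). In WT the lowest fold changes were those of *Nos2*, *Sele* and *Irf1*. *Irf1*, an interferon-responsive transcription factor, went from 293 to 23.3 mean CPM (-3.63, SE 0.51, adjusted p = 2.29e-05, edgeR), and *Sele*, an endothelial adhesion molecule, from 82.0 to 6.44 mean CPM. *Nos2* had 53 to 161 counts in quiescent WT libraries and 2 and 0 counts in activated WT libraries, so no fold is given. Against this direction, *Csf1*, the macrophage growth factor, rose from 226 to 1493 mean CPM in WT (2.72, SE 0.37, adjusted p = 1.67e-05, edgeR) and from 255 to 1457 mean CPM in KO (2.52, SE 0.37, adjusted p = 3.31e-05, edgeR). *Ccnd1*, a cyclin of the G1 phase, rose from 71.2 to 333 mean CPM in WT (2.23, SE 0.38, adjusted p = 0.000176, edgeR).

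Other measures moved with the same comparison. The 12 immediate early genes summed to 29263 to 46336 CPM in quiescent and 1570 to 3746 CPM in activated libraries, and 11 of them were called lower in each genotype. The 14 hematopoietic markers summed to 130 to 597 CPM in quiescent and 55.7 to 88.3 CPM in activated libraries, with up to 3 of them at 0 in an activated library. Endothelial markers (8 genes) summed to 303 to 1503 CPM and 128 to 766 CPM, and fibroadipogenic markers (8 genes) to 353 to 3271 CPM and 283 to 750 CPM, with none at 0 in any library. The 8 muscle fibre markers rose from 282 to 1013 CPM in quiescent to 7274 to 17462 CPM in activated libraries. The part of these cells and states in the lower levels of the NF-kB genes was not tested.

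The second question was whether loss of *Cxcr4* altered these genes. In quiescent cells no member was called, against 0.0155% of all genes tested, and none of the 10 had an unadjusted p under 0.05 in edgeR's test. DESeq2 on all 12 libraries also called none. Log2 fold changes of KO against WT ran from -0.09 for *Nfkbiz* to 0.30 for *Bcl3*, with standard errors from 0.19 to 0.32, and 9 of the 10 were above 0. *Relb* was the only gene whose KO libraries, at 105 to 123 CPM, all lay above the WT libraries, at 88.8 to 104 CPM. KO differed from WT by 0.16 on the log2 scale for *Relb* (SE 0.20, adjusted p = 1, edgeR), and 1.70% of all genes did not overlap between these groups. WT libraries averaged 203 ± 10.5 CPM of *Bcl3* and KO libraries 249 ± 32.4 CPM (SD, n = 4 each), and the highest WT library lay just above the lowest KO library.

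In activated cells no member was called either, against 0.0504% of all genes tested. *Cxcr4* itself was not called lower in these KO libraries. Among the 10 genes, 4 had an unadjusted p under 0.05 in edgeR's test, all lower in KO, against 4.11% of all genes lower at that p. Cultured WT cells averaged 27.3 ± 13.8 CPM of *Rel* and cultured KO cells 11.5 ± 2.45 CPM (SD, n = 2 each), a difference of -1.28 on the log2 scale (SE 0.34, adjusted p = 0.211, edgeR). *Bcl3* averaged 28.2 ± 13.3 CPM and 12.1 ± 1.36 CPM (SD, n = 2 each), a difference of -1.25 on the log2 scale (SE 0.33, adjusted p = 0.202, edgeR). *Tnfaip3* differed by -1.16 (SE 0.48, adjusted p = 0.516, edgeR) and *Nfkbiz* by -0.82 (SE 0.36, adjusted p = 0.562, edgeR), and for both the WT and KO libraries overlapped. *Rel*, *Bcl3* and *Nfkb1* were lower in both KO libraries than in both WT libraries, a pattern that 9.50% of all genes showed.

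These values depended on the tool and on single libraries. DESeq2 on all 12 libraries called *Rel* (log2 fold change -1.33, adjusted p = 0.0208) and *Bcl3* (-1.30, adjusted p = 0.0181) lower in activated KO cells. A fit without 1 WT activated library leaves 1 in that group, and its spread is then taken from the other groups. Without WT activated replicate 2, *Rel* was -1.77, *Tnfaip3* -1.92 and *Bcl3* -1.71 in edgeR's fit. WT activated replicate 1 had the highest level of *Rel*, *Bcl3*, *Tnfaip3* and *Nfkbiz* among the 4 activated libraries. Without it, *Tnfaip3* was 0.23 and *Nfkbiz* 0.01, while *Rel* was -0.70 and *Bcl3* -0.73. The part of the higher endothelial and immediate early sums of that library in these differences was not tested. Nor was that of the low depth and high ribosomal RNA share of WT activated replicate 2. The other 5 genes, *Rela*, *Relb*, *Nfkb2*, *Nfkbia* and *Nfkbib*, had log2 fold changes between -0.10 and 0.07, with standard errors from 0.28 to 0.33, and WT and KO libraries overlapped for each. For *Nfkb1* the value was -0.57 (SE 0.40, adjusted p = 0.768, edgeR).

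**Figure D4:**
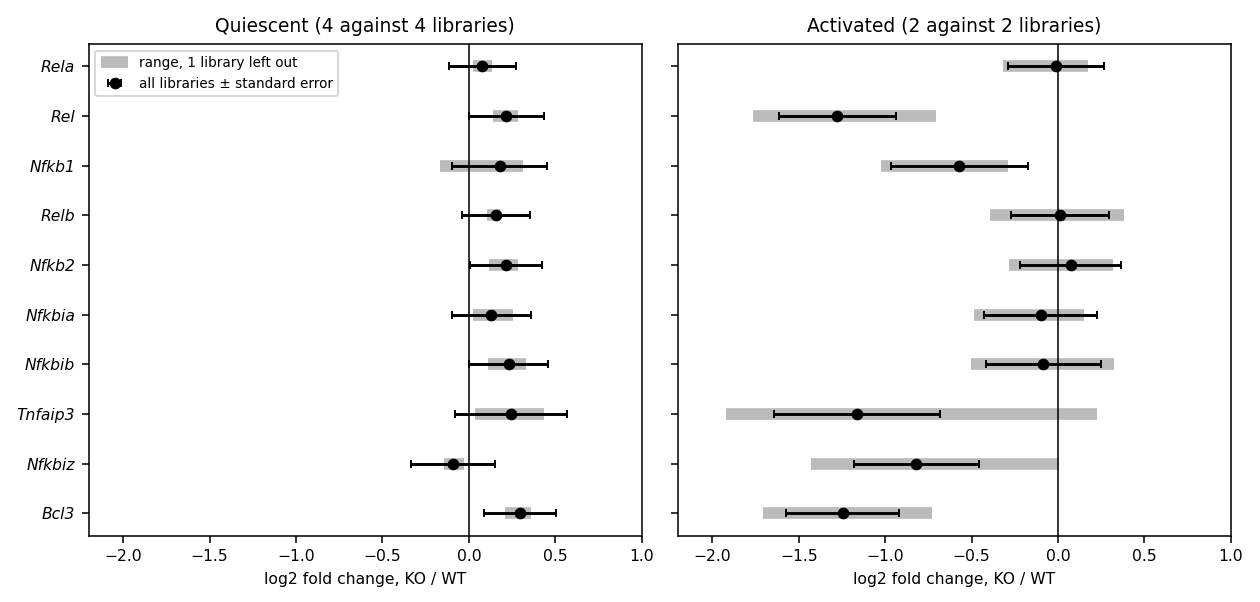
Log2 fold change of KO against WT for each gene in quiescent cells on the left and activated cells on the right, as points with standard errors; grey bars span the values obtained when each library was left out in turn. Points in quiescent cells lie between -0.09 and 0.30, and the bar of *Nfkb1* there runs from -0.17 to 0.31. In activated cells the bars of *Rel* and *Bcl3* stay below 0 and the bar of *Tnfaip3* runs from -1.92 to 0.23.

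The difference between these effects asks whether the KO effect in activated cells departed from that in quiescent cells. No member was called, and of all genes tested 0% were. All 10 differences were below 0, with a median of -0.52 beside 0.02 over all genes, and 3 had an unadjusted p under 0.05 in edgeR's test, against 3.39% of all genes below 0 at that p. They were *Bcl3* at -1.54 (SE 0.39, adjusted p = 0.321, edgeR), *Rel* at -1.49 (SE 0.40, adjusted p = 0.38, edgeR) and *Tnfaip3* at -1.41 (SE 0.58, adjusted p = 0.694, edgeR). The 10 differences share the same libraries, so their common sign is not 10 separate observations. With libraries left out, the highest values were above 0 for *Relb* (0.23), *Nfkb2* (0.11), *Rela* (0.10), *Nfkbib* (0.10), *Nfkbiz* (0.10) and *Nfkbia* (0.02). They stayed below 0 for *Tnfaip3* (-0.01), *Nfkb1* (-0.40), *Rel* (-0.91) and *Bcl3* (-1.02). DESeq2 on all 12 libraries called *Rel* (-1.55, adjusted p = 0.0431) and *Bcl3* (-1.60, adjusted p = 0.0171). Without WT activated replicate 2, edgeR called *Bcl3*, *Rel* and *Tnfaip3*, with adjusted p-values of 0.0312, 0.0341 and 0.0432, and without WT activated replicate 1 it called none. Of the other pathway and target genes, none was called between KO and WT in either state, and the median log2 fold change in activated cells was -0.20 over 48 pathway genes and -0.67 over 32 targets. At an unadjusted p under 0.05 in edgeR's test, 9 pathway genes were lower and 1 higher in activated KO cells. Of the targets, 12 were lower and 0 higher, against 4.11% of all genes lower and 4.26% higher. Both lists were chosen with earlier results of these data known, so these counts are not an independent test. Without WT activated replicate 1, a setting added after the data were seen, the medians of the pathway genes and targets were 0.04 and 0.10. Leaving out WT activated replicate 2 instead, they were -0.35 and -1.39. Each of these fits leaves 1 WT activated library. *Ptgs2*, which encodes a prostaglandin synthase and was chosen after its values were seen, had 134 and 11.4 CPM in activated WT libraries. Activated KO libraries had 2.57 and 12.1 CPM, so that WT replicate 2 lay between them. *Gadd45b* and *Ccnd1*, chosen in the same way among the targets lower in the fit with all libraries, did not overlap between genotypes. *Gadd45b* had 366 and 162 CPM in activated WT and 107 and 95.8 CPM in activated KO libraries. For *Ccnd1* the values were 307 and 359 CPM in WT and 180 and 149 CPM in KO. Library values of the other targets in this comparison are not given. In quiescent cells 1 pathway gene and 4 targets were higher in KO at an unadjusted p under 0.05, against 1.09% of all genes, and 0 were lower, against 0.648%.

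The third question was how the members varied together among the 8 quiescent libraries. Each of the other 9 genes was correlated with *Nfkbia* on log2 CPM, with exact permutation p-values adjusted over the 9 relations. *Tnfaip3* followed *Nfkbia* with Pearson's r = 0.884 (exact permutation p = 0.00154, adjusted p = 0.0138) and Spearman's rho = 0.857 (exact permutation p = 0.0107, adjusted p = 0.0482). Without WT quiescent replicates 3 and 4, the libraries farthest from the median of *Nfkbia*, r was 0.705 (exact permutation p = 0.114), which no longer passed the threshold over 6 libraries. *Nfkb1* ran the opposite way, with r = -0.741 (exact permutation p = 0.0245, adjusted p = 0.11) and rho = -0.905 (exact permutation p = 0.00456, adjusted p = 0.0411). Its r was -0.991 (exact permutation p = 0.00139, adjusted p = 0.0125) without those 2 libraries. Among the 6 left, KO replicate 4 lay apart, with 513 CPM of *Nfkbia* and 1929 CPM of *Nfkb1*. The others had 625 to 702 CPM of *Nfkbia* and 792 to 1036 CPM of *Nfkb1*. The remaining 7 genes had r between -0.703 and 0.611, with adjusted exact permutation p-values from 0.161 to 0.41.

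The quiescent libraries were not spread evenly along *Nfkbia*. WT replicates 3 and 4 and KO replicate 4 had 439 to 513 CPM, the other 5 libraries had 625 to 702 CPM, and neither set is large enough for a correlation of its own. Endothelial markers summed to 557, 655 and 303 CPM in the 3 libraries with low *Nfkbia*, to 518 CPM in KO replicate 2, and to 1351 to 1503 CPM in the other 4. Hematopoietic markers summed to 597 CPM in KO replicate 4 and to 130 to 327 CPM in the other quiescent libraries. The part of endothelial or hematopoietic RNA in the shared variation of *Nfkbia* with *Tnfaip3* and *Nfkb1* was not tested. Within each genotype there were 4 libraries, too few for a correlation.

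**Figure D5:**
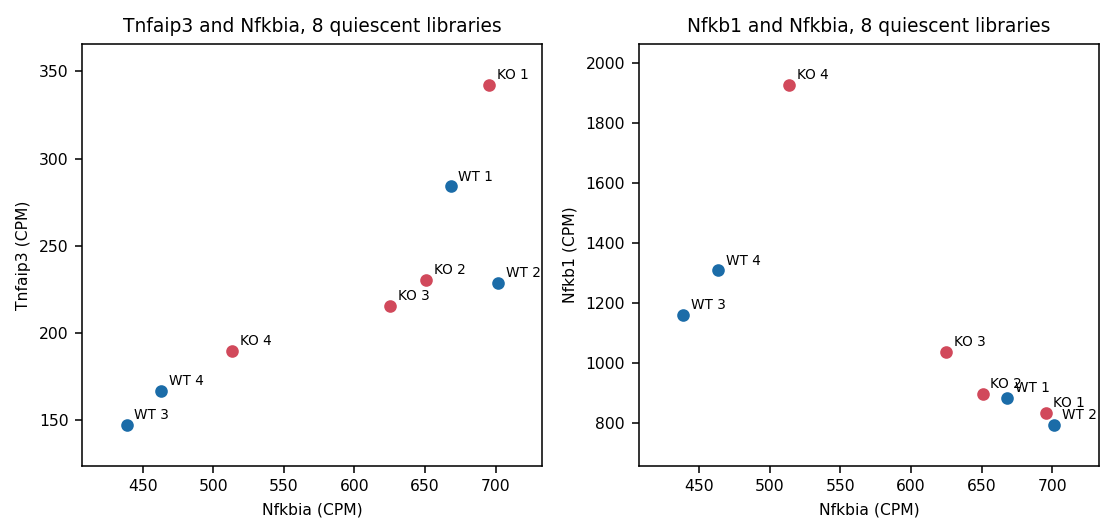
*Tnfaip3* (left) and *Nfkb1* (right) against *Nfkbia*, all in CPM, in the 8 quiescent libraries, WT in blue and KO in red, with replicate numbers. *Tnfaip3* rises and *Nfkb1* falls along *Nfkbia*, with a gap in *Nfkbia* between 513 and 625 CPM.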

How the data were processed

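Per the labels and the methods, the authors trimmed reads with Trim Galore 0.6.0, mapped them to GRCm38 with STAR 2.7.2a and counted them on GENCODE M25 genes. The deposited file holds whole-number read counts of each gene in 12 libraries, without normalization. The strand setting and the treatment of multi-mapped reads are not given in the sources used here. FPKM values, which the authors deposited as a single value for each group, were not used for any result. Groups came from the sample labels.

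Counts were filtered with filterByExpr, scaled by TMM and fitted in edgeR 4.0.16 (R 4.3.3) with 4 group means, followed by quasi-likelihood tests and Benjamini-Hochberg adjustment over all genes. Correlations used log2 CPM with a prior count of 2. Levels per kilobase used the merged exons of GENCODE M21, on GRCm38. The test was checked on simulated data. DESeq2 1.42.0 and the other alternatives are given at the end. All 10 genes were named in each comparison. From the pathway and target lists, the text named the 3 highest and 3 lowest fold changes per state comparison among genes called in both genotypes. Members and lists were chosen with earlier results of these data known. Depth was 3172164 to 23717013 counts per library.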

Additional observations from a re-analysis of the deposited data

Results flagged for a closer look

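*Relb* in KO quiescent replicate 4, at 122.677 CPM, lay far above the other 3 KO quiescent libraries, which had 105 to 107 CPM. The gap was 0.885 of the whole range of the group, over Dixon's 95% critical value for 4 libraries. It was the only one of 20 groups of 4 libraries to pass this value, and chance flags about 1 in 20.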

How the results depend on the processing

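With 1 library, or both activated libraries numbered 2, left out, the count of the 10 genes called lower in culture ran from 5 to 9 in WT and from 8 to 9 in KO. The count called between KO and WT ran from 0 to 3 in activated cells, was 0 in quiescent cells and ran from 0 to 3 for the difference of the KO effects. The highest counts for KO against WT came without WT activated replicate 2, and a group left with 1 library was assumed to vary like the others. DESeq2 on all 12 libraries called 2 members between activated KO and WT and 2 for the difference of effects. Spearman's rho gave 2 relations with *Nfkbia* past the threshold instead of 1. DESeq2's size factors, other filters on low counts, the robust fit, edgeR on the compared groups and leaving out *CT010467.1* did not move any count of members, and the adjusted p alone gave 9 in place of 8 in WT. No called fold change of a member changed sign in any alternative. Uncalled ones did in 19 of 130 settings and genes for activated KO against WT, 1 of 160 for quiescent KO against WT and 8 of 200 for the difference of effects. The cause was not tested.

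Over all genes, the 13 called between activated KO and WT (8 higher, 5 lower) became 332 with no filter, 144 with DESeq2, 2 with a mean count of at least 10, 3 with the compared groups only, 20 with the robust fit, 8 (4 higher, 4 lower) with DESeq2's size factors and 0 to 211 with libraries left out. The 4 called in quiescent cells became 47 with no filter and 3 to 7 with a library left out. The 0 for the difference of effects became 170 with no filter, 47 with DESeq2, 8 with the robust fit, 1 without *CT010467.1* and up to 82 with libraries left out. Counts for culture stayed within 1.5 times, except in WT without WT activated replicate 2 (4481 against 6750), and in KO without KO activated replicate 1 (5020 against 7633).

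Groups share replicate numbers. The replicate block gave 8 members called in WT culture, 9 in KO culture and 0 in each comparison of KO and WT, changing no call of a member, and 23 genes in all between activated KO and WT and 6 for the difference of effects. Deviations of same-numbered quiescent WT and KO libraries correlated at 0.353, 0.161, -0.39 and 0.696 over 7361 genes. In activated libraries the value was -0.144. With 2 libraries per group their deviations mirror each other, so this value cannot decide the pairing. Not every quiescent library correlated best with its own number, so the numbers were not taken to pair the libraries. The activated libraries held at most 5427280 counts each, with 2 per group.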
